A study of Mus musculus with 4 samples.

Results

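The T cells of PDOX-treated mice were compared with those of mice that received anti-PD-L1 alone, which asks what anti-OX40 and CpG change when they are added to PD-L1 blockade. A cell was taken as a T cell when it held 200 to 2900 detected genes (mitochondrial, ribosomal and hemoglobin genes not counted) and at least 1 unique molecular identifier (UMI, the count of captured transcripts) of Cd3d, Cd3e or Cd3g, which encode the CD3 chains of the T cell receptor complex. This gave 1340 cells of the PDOX library and 1317 cells of the anti-PD-L1 library, 2657 in all, out of 2989 deposited cells of these libraries and 5434 of the whole series. The cells were split by the UMIs of the coreceptor genes. CD8 T cells held Cd8a or Cd8b1 UMIs and no Cd4 UMI (456 PDOX and 653 anti-PD-L1 cells), and CD4 T cells held Cd4 UMIs only (301 and 197 cells).

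All groups were C57BL/6 mice, female and 6 to 8 weeks old, with subcutaneous MC-38 tumors, a mouse colorectal carcinoma line. Blood was taken on day 18 after tumor challenge, and its T cells were enriched with magnetic beads in 2 consecutive rounds before droplet-based 3′ single-cell RNA sequencing. Anti-PD-L1, which blocks the ligand of PD-1, was given to both groups at 150 μg on days 10, 13 and 17. PDOX mice had in addition received an agonistic antibody to the costimulatory receptor OX40 (150 μg) with 25 μg CpG, a ligand of Toll-like receptor 9, on day 7. An untreated library and a library labelled OX40, taken here as anti-OX40 with CpG by the regimen of the study and marked anti-OX40/CpG in the plots, served as background. Each group is 1 library, and the deposited design speaks of 4 mice, so that treatment, mouse and library cannot be told apart. There is no replicate check, and every interval below is a 95% interval that covers counting error only.

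A naive T cell recirculates through lymph nodes under transcription factors such as TCF-1 and LEF-1 and with the entry receptor CCR7. After antigen, costimulation and cytokines, effector cells lose this program and take up granzymes, inflammatory chemokine receptors, integrins and, above all in the CD8 lineage, receptors shared with natural killer (NK) cells, with ID2, T-bet, ZEB2 and EOMES among the factors that guide the change. PD-1 restrains such cells and OX40 supports their expansion and survival. Type I and type II interferons switch on a further set of genes, through the interferon regulatory factors among others, in nearly every cell they reach.

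The libraries had similar depth. The PDOX library held 4121932 deposited UMIs and the anti-PD-L1 library 4969885, and the median T cell held 1604 and 1731 UMIs of the genes kept. The median cell had 7 Cd3 UMIs in both. Ribosomal genes took 32.3% of the UMIs of the PDOX library and 38.7% of those of the anti-PD-L1 library, and they were left out of the levels below, which are UMIs per 10000 UMIs of the other genes. Markers of other blood cells were found among the cells that passed the Cd3 rule. Summed over the T cells, 8 monocyte markers reached 15.9 UMIs per 10000 in the PDOX and 22.2 in the anti-PD-L1 library, 8 neutrophil markers 6.79 and 0.351, 8 NK cell markers 3.82 and 6.83, 8 platelet markers 0.871 and 0.315, and 5 B cell markers 0.755 and 1.06. The monocyte markers include Ccr2, which is counted below among the homing receptors of T cells, so this sum is not of other cells alone. Ccr2 was left out of the myeloid markers that follow. In 22 PDOX and 30 anti-PD-L1 cells at least 10 UMIs came from myeloid or platelet markers, and 16 and 19 of these cells had a single Cd3 UMI. PDOX and anti-PD-L1 libraries shared 2 cell barcodes, both among the T cells.

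CD8 T cells made up 34.0% (31.5 to 36.6) of the PDOX and 49.6% (46.8 to 52.3) of the anti-PD-L1 T cells, against 45.4% in the OX40 and 46.5% in the untreated library. CD4 T cells made up 22.5% (20.3 to 24.8) and 15.0% (13.1 to 17), against 17.8% and 14.6%. Coreceptor UMIs were found in neither form in 38.0% (35.4 to 40.6) of PDOX and 30.4% (27.9 to 32.9) of anti-PD-L1 T cells. The CD8 part was thus smaller in the PDOX library, and the intervals of the 2 libraries did not overlap for any of these 3 classes. These are shares of cells with detected coreceptor transcripts and not of lineages as a cytometer would count them.

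Over all T cells, 177 of 7678 genes with at least 50 UMIs (2.31%) were at least 2-fold higher in the PDOX library and 197 (2.57%) at least 2-fold lower, with a median ratio of 1.01. Transcripts of the molecules the antibodies address were sparse. Tnfrsf4, which encodes OX40, had 141 UMIs in the PDOX and 32 in the anti-PD-L1 library, a ratio of 4.74 (3.21 to 7.19). Its level was 0.605 UMIs per 10000 in the PDOX, 0.128 in the anti-PD-L1, 0.380 in the OX40 and 0.138 in the untreated library. The CD4 T cells held most of the difference that could be placed, with 1.12 (0.860 to 1.44) against 0.337 (0.168 to 0.603) UMIs per 10000. Pdcd1, which encodes PD-1, had 73 and 17 UMIs, a ratio of 4.62 (2.70 to 8.36), with 0.365 UMIs per 10000 in the OX40 library, near the PDOX level of 0.313. Cd274, which encodes PD-L1 itself, went the other way with 0.258 against 0.475 UMIs per 10000 over all T cells and 0.140 (0.0722 to 0.244) against 0.428 (0.323 to 0.555) in CD8 T cells, a ratio of 0.327 (0.159 to 0.617).

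In CD8 T cells, genes of effector differentiation were higher in the PDOX library and genes of the naive state were lower, while interferon-stimulated genes were lower as well. Of 5307 genes with at least 50 UMIs over both libraries, 103 (1.94%) were at least 2-fold higher and 127 (2.39%) at least 2-fold lower in PDOX, and the median ratio over all of them was 0.996. With ribosomal, mitochondrial and hemoglobin genes in the denominator, the same counts were 163 and 73, and all ratios moved up by 0.18 on the log2 scale.

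**Figure D1:**
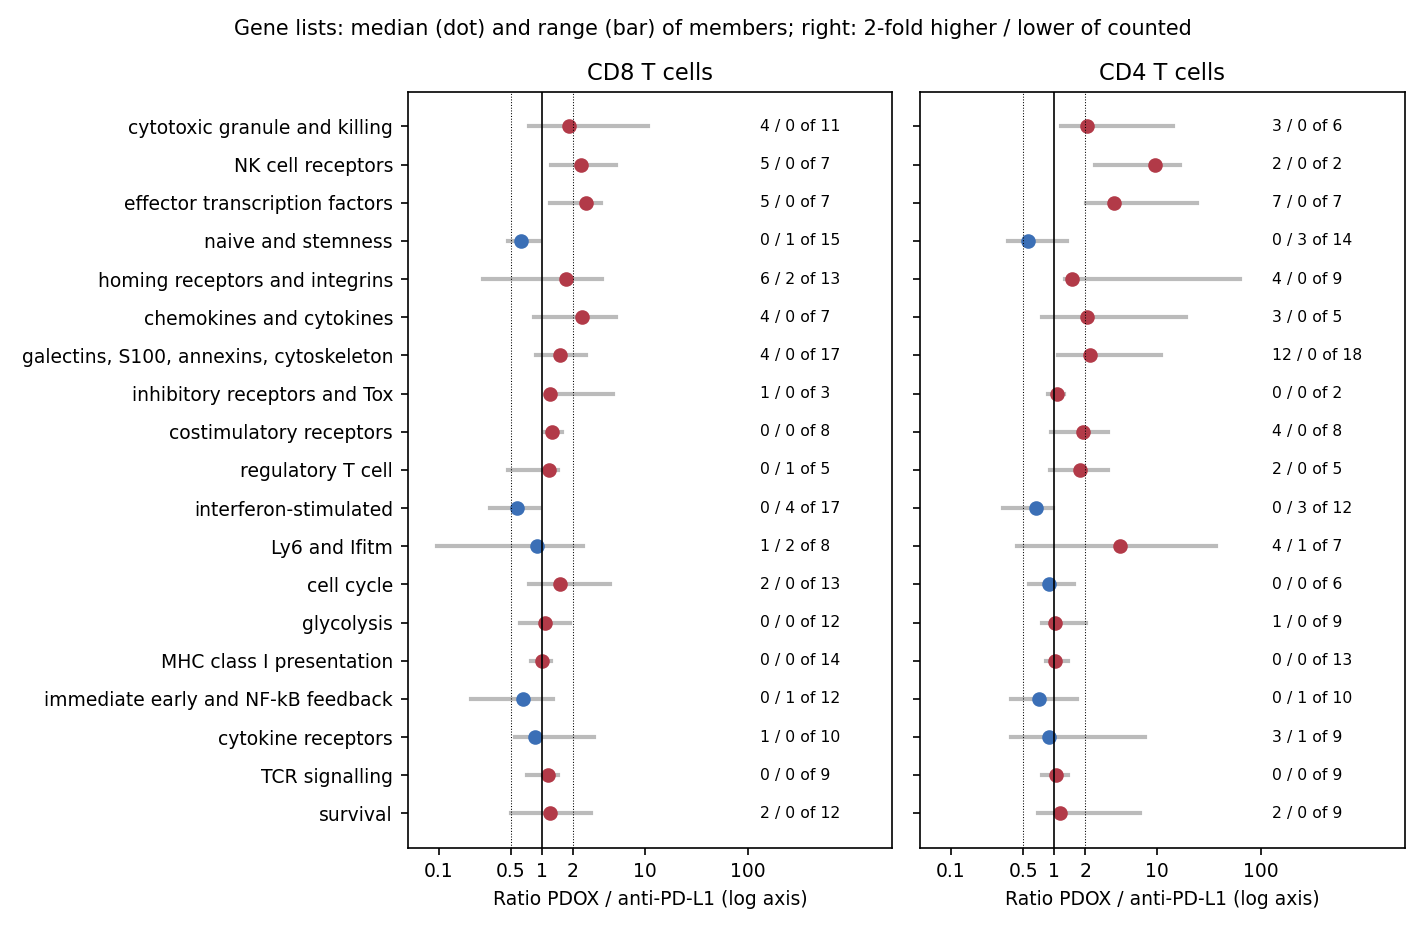
Ratio of PDOX to anti-PD-L1 levels for 19 gene lists in CD8 and CD4 T cells, on a log axis; each dot is the median over the genes with at least 50 UMIs, the bar spans the lowest to the highest gene, medians above 1 are red and below 1 blue, and the dotted lines mark 0.5 and 2. Effector transcription factors have the highest CD8 median (2.66) and interferon-stimulated genes the lowest (0.573).

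Among genes of the cytotoxic granule, 4 of 11 were at least 2-fold higher in PDOX CD8 T cells and none was 2-fold lower, with a median ratio of 1.82. Gzmk, the granzyme of early effector and memory cells, had 2.24 (1.93 to 2.58) UMIs per 10000 in the PDOX and 0.206 (0.136 to 0.30) in the anti-PD-L1 library, a ratio of 10.8 (7.22 to 16.9). Gzmk UMIs were found in 89 of 456 PDOX cells and in 18 of 653 anti-PD-L1 cells, and the OX40 library lay in between at 1.28 UMIs per 10000 with 0.0184 in the untreated library. Gzmb and Gzma encode the granzymes that set off apoptosis in a target cell. Gzmb stood at 4.37 against 1.21, a ratio of 3.60 (2.98 to 4.36), and Gzma at 17.7 against 5.77, a ratio of 3.06 (2.80 to 3.35). Nkg7, a granule membrane protein needed for degranulation, stood at 40.0 (38.7 to 41.4) against 18.9 (18.1 to 19.6), with 27.4 in the OX40 and 13.7 in the untreated library. For all of these the order of the 4 libraries was the same, with PDOX highest, OX40 next, then anti-PD-L1 and the untreated library lowest. Ctla2a, an inhibitor of cathepsin-like proteases that is known from activated T cells, belongs to none of the lists and was among the genes that ranked highest, with 6.87 against 1.90 and a ratio of 3.61 (3.11 to 4.21). Ctsc, the protease that activates granzymes, was the granule gene with the lowest ratio, 0.758 (0.575 to 0.992).

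Ccl5, a chemokine that effector and memory T cells store as ready transcript, was the most heavily counted of the genes that differed. It had 306 (303 to 310) UMIs per 10000 in PDOX, 58.3 (57 to 59.6) in anti-PD-L1, 202 in OX40 and 23.6 in untreated CD8 T cells, and the ratio of PDOX to anti-PD-L1 was 5.26 (5.13 to 5.39). Of the 7 chemokine and cytokine genes counted, 4 were at least 2-fold higher. The others of the 4 were Ccl4, an inflammatory chemokine (2.95, 2.17 to 4.06), Ifng, the type II interferon (48 against 30 UMIs, 2.44, 1.51 to 3.99), and Il2, the T cell growth factor (75 against 47 UMIs, 2.43, 1.67 to 3.58). Il2 did not follow the order of the granule genes, since the untreated library (0.810 UMIs per 10000) was close to PDOX (0.874) and both the anti-PD-L1 (0.359) and the OX40 library (0.290) were lower.

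Of 10 NK cell receptor genes 7 could be counted in CD8 T cells, and 5 of these were at least 2-fold higher in PDOX, with a median ratio of 2.39. Klrg1, an inhibitory receptor of cells far along the effector path, had 1.05 (0.843 to 1.29) against 0.199 (0.130 to 0.291) UMIs per 10000, a ratio of 5.28 (3.38 to 8.51). Klrk1, which encodes the activating receptor NKG2D, had 3.26 (2.89 to 3.67) against 1.28 (1.09 to 1.48), and the OX40 library lay between them at 2.1. Klrc1 and Klrc2, which encode the inhibitory NKG2A and the activating NKG2C, had ratios of 2.39 (1.86 to 3.09) and 2.67 (1.78 to 4.04). Their partner chain CD94, encoded by Klrd1, differed less, with a ratio of 1.22 (1.09 to 1.36). The 8 NK cell markers summed to 1.14 UMIs per 10000 in PDOX and 4.05 in anti-PD-L1 CD8 T cells, and Tyrobp and Fcer1g, which myeloid cells also express, each had 1.74 of the latter. Cells with 2 or more of these markers made up 2.63% of PDOX and 2.14% of anti-PD-L1 CD8 T cells. Ncr1 and Klra8 had no UMI in PDOX, and Klra4 had none in anti-PD-L1 CD8 T cells. Without cells holding 2 or more markers of another cell type, NK cells included, the ratios were 5.06 for Klrg1, 2.58 for Klrk1 and 2.20 for Klrc1.

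Of 12 transcription factor genes that guide effector cells 7 could be counted in CD8 T cells, and 5 of these were at least 2-fold higher, with a median ratio of 2.66 and no gene that was 2-fold lower. Id2, which holds E proteins from DNA, had 10.5 (9.79 to 11.2) UMIs per 10000 in PDOX, 4.12 (3.78 to 4.49) in anti-PD-L1, 5.37 in OX40 and 2.87 in untreated CD8 T cells. Rora, a nuclear receptor, had a ratio of 3.75 (2.56 to 5.60), Eomes of 2.79 (1.74 to 4.55), Bhlhe40 of 2.70 (1.63 to 4.55) and Zeb2 of 2.66 (1.98 to 3.59). Runx3, which silences Cd4 in the CD8 lineage, and Batf had ratios of 1.2 (0.966 to 1.48) and 1.24 (0.903 to 1.69), whose intervals reach below 1. Tbx21, which encodes T-bet, fell short of the 50 UMIs needed to be counted, with 37 against 11 UMIs in CD8 T cells.

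**Figure D2:**
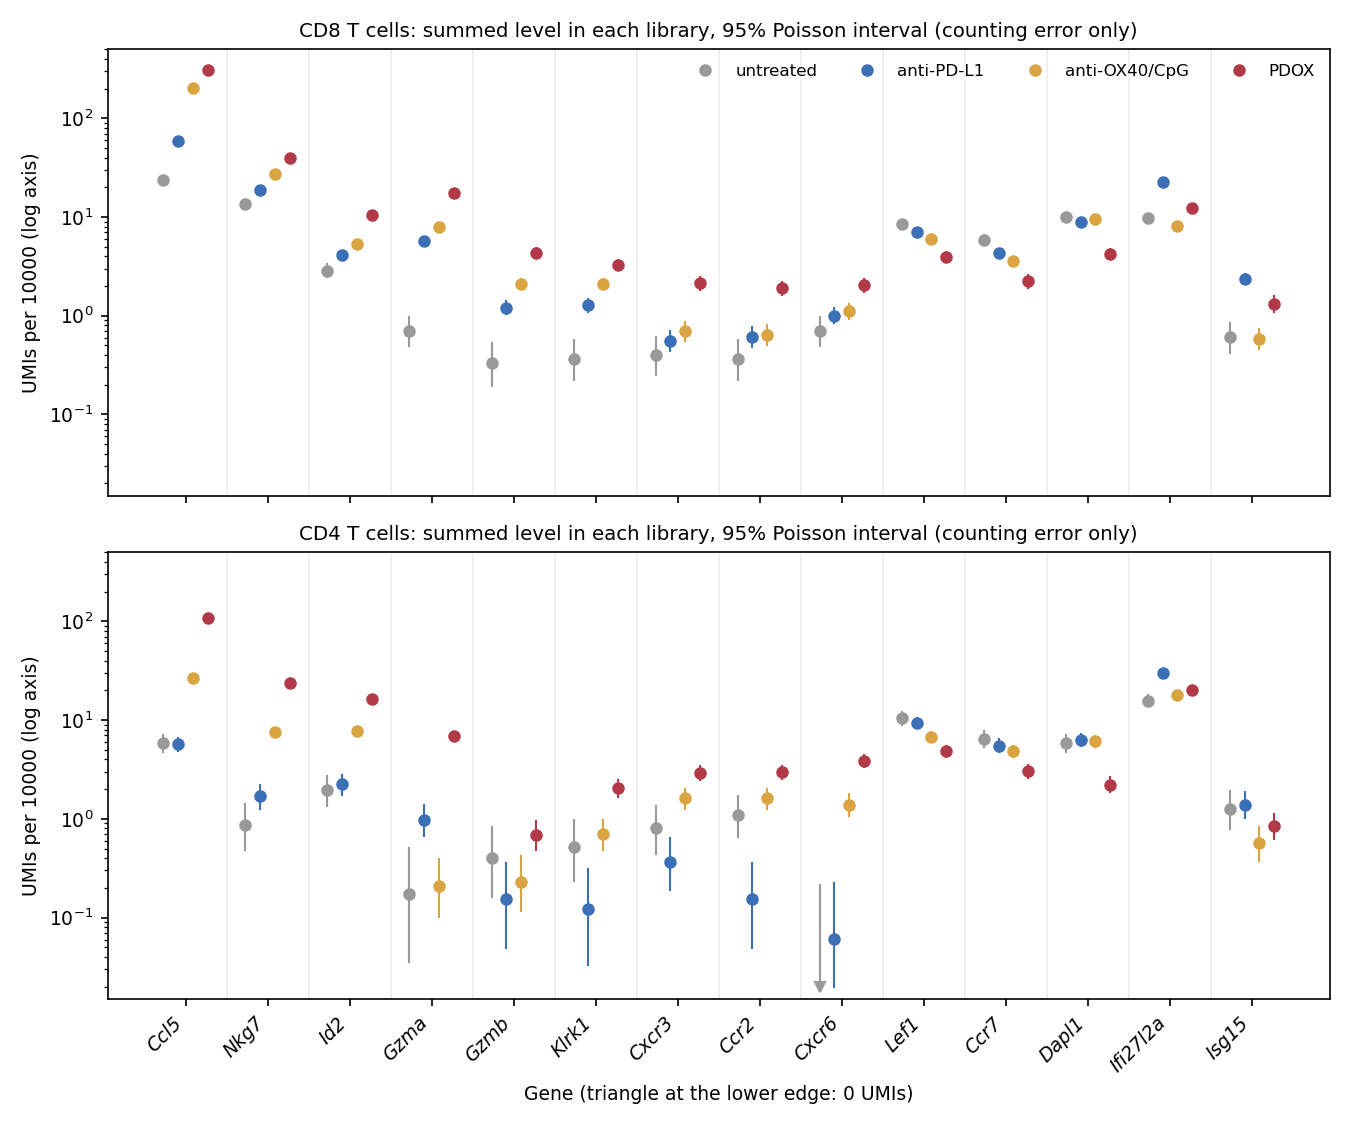
UMIs per 10000 (log axis) of 14 genes in CD8 T cells (top) and CD4 T cells (bottom) of the 4 libraries, with 95% intervals for counting error; triangles mark a library with no UMI of the gene. In CD8 T cells Ccl5 stands at 306 in PDOX and 58.3 in anti-PD-L1, and Ifi27l2a is lower in PDOX (12.3) than in anti-PD-L1 (22.6) but above OX40 (8.20).

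Of 16 homing receptor and integrin genes 13 could be counted in CD8 T cells, of which 6 were at least 2-fold higher and 2 at least 2-fold lower in PDOX, and 11 had ratios over 1. Cxcr3, the receptor of the interferon-induced chemokines CXCL9 and CXCL10, had 2.14 (1.84 to 2.48) UMIs per 10000 in PDOX and between 0.405 and 0.693 in the other 3 libraries, with a ratio to anti-PD-L1 of 3.84 (2.92 to 5.11). Ccr2, a receptor for monocyte chemoattractants, had 1.90 (1.62 to 2.21) against between 0.368 and 0.645, with a ratio of 3.11 (2.36 to 4.11). Both genes thus stood apart in the PDOX library from each of the other libraries, the OX40 library included. Cx3cr1, the fractalkine receptor of long-lived effector cells, had a ratio of 2.77 (1.93 to 4.01), S1pr5 of 2.81 (1.56 to 5.20), the integrin chain gene Itgb1 of 2.36 (1.94 to 2.88) and Cxcr6 of 2.05 (1.62 to 2.59). Without the cells rich in myeloid or platelet markers the ratio of Cxcr6 was 1.97, and without cells holding 2 or more markers of another cell type it was 1.99, both short of 2-fold. The 2 genes of this list that were at least 2-fold lower were Ccr9, the receptor for the intestinal chemokine CCL25, with 0.233 (0.142 to 0.360) against 0.871 (0.718 to 1.05), and Itgae, the chain of the integrin CD103 that binds epithelial E-cadherin, with a ratio of 0.472 (0.292 to 0.740). Itga4 and Itgb7, whose products pair in a gut-homing integrin, had ratios over 1, at 1.73 (1.46 to 2.05) and 1.19 (1.04 to 1.36).

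All 15 naive and stemness genes counted had ratios under 1 in CD8 T cells, with a median of 0.626, and Dapl1 was the only one of them past 2-fold. Dapl1, a marker of naive T cells of little known function, had 4.23 (3.8 to 4.69) UMIs per 10000 in PDOX and between 8.95 and 9.96 in the other 3 libraries. Lef1 had 3.96 (3.55 to 4.40) against 7.03 (6.59 to 7.5), with 5.96 in OX40 and 8.47 in untreated cells. Ccr7, which guides cells into lymph nodes, had 2.24 (1.93 to 2.58) against 4.30 (3.95 to 4.67), and Tcf7, which encodes TCF-1, 3.33 (2.96 to 3.74) against 5.29 (4.90 to 5.69). The interval of PDOX was below that of anti-PD-L1 for each of these genes. With ribosomal, mitochondrial and hemoglobin genes in the denominator, the ratio of Dapl1 was 0.534, short of 2-fold.

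Inhibitory receptors were mostly too sparse to count in CD8 T cells. Lag3, a receptor for MHC class II induced by T cell activation, had 51 UMIs in PDOX and 16 in anti-PD-L1, a ratio of 4.86 (2.73 to 9.13), and the OX40 library was higher still at 0.854 UMIs per 10000 against 0.594 in PDOX. Tox, a factor of exhausted cells, had a ratio of 1.18 (0.828 to 1.69). None of 8 costimulatory receptor genes passed 2-fold, with a median ratio of 1.26. Among 17 galectin, S100, annexin and cytoskeleton genes, which effector cells carry at high levels, 4 were at least 2-fold higher, namely Ahnak (2.66), S100a6 (2.24), S100a4 (2.09) and Lgals1 (2.03), the last of which encodes galectin-1. Without cells holding 2 or more markers of another cell type, the ratio of S100a4 was 4.53.

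Genes of machinery that naive and effector cells share lay near a ratio of 1. The medians were 1.01 over 14 genes of MHC class I presentation, 1.07 over 12 genes of glycolysis and 1.14 over 9 genes of T cell receptor signalling, with no gene past 2-fold in any of the 3 lists. Of 12 survival genes 2 were at least 2-fold higher, Bcl2a1d (3.0, 1.92 to 4.78) and Bcl2a1b (2.11, 1.56 to 2.88), both members of the BCL-2 family. Of 10 cytokine receptor genes only Il18rap, a chain of the interleukin-18 receptor, passed 2-fold (3.21, 2.03 to 5.18), and the median was 0.866. Of 13 cell cycle genes, Birc5 and Ccnb2, which act in mitosis, passed 2-fold (2.45 and 4.57), on 13 and 9 PDOX cells and with 42.6% of the Birc5 UMIs of PDOX in 1 cell. Mki67, the common marker of cycling cells, had UMIs in 7 of 456 PDOX and 10 of 653 anti-PD-L1 cells, 1.54% (0.619 to 3.14) and 1.53% (0.737 to 2.80). With so few cells, Mki67 cannot show at this depth whether a larger part of CD8 T cells was in cycle. Over the whole list, 8 of the 13 genes had ratios over 1 and 5 had ratios under 1, between 0.751 and 4.57. Hmgb2 stood at 1.88 and Stmn1 at 1.52, while Tuba1b was lowest at 0.751. Whether these ratios reflect more cells in cycle was not tested.

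Some of the widest ratios in CD8 T cells rested on few cells. Lyz2, the lysozyme of monocytes and neutrophils, had 1277 UMIs in anti-PD-L1 and 50 in PDOX cells, with 85.4% of the former in 8 cells rich in myeloid markers. Fcer1g (0.0535), Tyrobp (0.114) and Ifitm3 (0.0966) followed it among the lowest ratios. Wfdc18, Psca, Krt19 and Krt13, the last a keratin of stratified epithelium, were among the 10 genes ranked highest, and 1 PDOX cell held at least 97.9% of the UMIs of each. Plet1, another of this kind, had 72.4% of its anti-PD-L1 UMIs in 1 cell. Without the cell with the most UMIs of each gene, the ratio of Psca was 0.235 and that of Krt13 0.169. The part of such cells in some of the other ratios was measured by leaving them out. Without cells of at least 10 myeloid or platelet UMIs, the ratios of Gzmk, Ccl5, Klrg1, Gzmb, Cxcr3 and Id2 kept within 1.5-fold of the values above.

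In CD4 T cells, effector genes such as Ccl5, Nkg7 and Id2 were also higher in PDOX, with wider ratios than in CD8 T cells. Of 2946 genes counted, 137 (4.65%) were at least 2-fold higher and 63 (2.14%) at least 2-fold lower, with a median ratio of 1.02. The anti-PD-L1 library held only 197 CD4 T cells, so that many of its counts are below 20 UMIs and the upper ends of the intervals are wide. A sparse gene can reach the 50 UMIs needed only through the library where it is high, so the counts of list members here describe the genes that passed and are no measure of the whole list.

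Of 16 homing receptor and integrin genes 9 could be counted in CD4 T cells, of which 4 were at least 2-fold higher and none 2-fold lower in PDOX, with a median of 1.49. Cxcr6, the receptor for CXCL16 on cells that settle in tissue, had 214 UMIs in 91 of 301 PDOX cells and 2 UMIs in 2 of 197 anti-PD-L1 cells. Its level was 3.87 (3.37 to 4.43) against 0.0613 (0.00743 to 0.222) UMIs per 10000, with 1.39 in the OX40 library and none found in the untreated one, and the ratio was 63.1 (17.3 to 525). Ccr2 had 2.95 (2.51 to 3.44) against 0.153 (0.0498 to 0.358), a ratio of 19.2 (8.07 to 60.0). Cxcr3 had 2.93 (2.50 to 3.42) against 0.368 (0.190 to 0.643), a ratio of 7.96 (4.44 to 15.7). The other of the 4 was Itgb1 (2.50, 1.98 to 3.19).

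Of 13 cytotoxic granule genes 6 could be counted in CD4 T cells, and 3 of these, Nkg7, Gzma and the lysosomal protease gene Ctsd (2.56, 2.04 to 3.23), were at least 2-fold higher in PDOX, with a median of 2.07. The other 3 were Ctsc (1.16, 0.735 to 1.87), Ctsw (1.38, 0.92 to 2.12) and Srgn (1.58, 1.33 to 1.87). The chemokine gene Ccl5 had 108 (105 to 110.4) UMIs per 10000 against 5.67 (4.88 to 6.55), a ratio of 19.0 (16.4 to 22.1), and 58.4% of the anti-PD-L1 UMIs came from 1 cell. Nkg7 had 24.0 (22.7 to 25.3) against 1.69 (1.27 to 2.20), with 7.55 in the OX40 and 0.860 in the untreated library. Klrk1 had 113 UMIs in 45 PDOX cells and 4 UMIs in 2 anti-PD-L1 cells, a ratio of 16.7 (6.33 to 62.2). Klrd1, which pairs with NKG2 chains, had a ratio of 2.46 (1.68 to 3.70), and these 2 were the only NK cell receptor genes of 10 that could be counted. Gzma had 382 against 32 UMIs, a ratio of 7.04 (4.90 to 10.4) in 31 and 6 cells and 78.1% of the anti-PD-L1 UMIs in 1 cell. Gzmk had 37 UMIs in 20 PDOX cells and none in 197 anti-PD-L1 cells, at least 7.27-fold higher against a floor of 3 UMIs. Among NK cell markers outside these lists, Ncr1, Klrb1c, Klra4, Klra8 and Klra9 had no UMI in the CD4 T cells of either library.

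Of 12 effector transcription factor genes 7 could be counted in CD4 T cells, and the 7 had ratios between 2.04 and 24.5, with a median of 3.83. Id2 had 16.3 (15.3 to 17.4) UMIs per 10000 in PDOX, 2.24 (1.75 to 2.81) in anti-PD-L1, 7.71 in OX40 and 1.95 in untreated cells, a ratio of 7.30 (5.74 to 9.39). Bhlhe40, which restrains Il10 in helper cells, had 83 against 2 UMIs, a ratio of 24.5 (6.57 to 205), and so was counted through its PDOX level. Zeb2 had a ratio of 6.84 (2.77 to 21.9), Maf, a factor of helper cells, of 3.83 (1.96 to 8.37), Rora of 3.32 (1.94 to 6.05) and Runx3 of 2.95 (1.74 to 5.30). Batf, which acts with IRF4 in activated T cells, was the lowest at 2.04 (1.25 to 3.44).

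Galectin, S100, annexin and cytoskeleton genes were higher in 12 of 18 cases by at least 2-fold, with a median of 2.23. S100a4 had 18.7 (17.5 to 19.8) against 1.72 (1.30 to 2.23) UMIs per 10000, Lgals1 38.2 (36.6 to 39.8) against 8.19 (7.23 to 9.23), and Ahnak, a scaffold protein of calcium channels, 4.02 (3.5 to 4.58) against 0.613 (0.375 to 0.947). Lgals3 had a ratio of 5.33 (3.67 to 7.99), with 54.8% of the anti-PD-L1 UMIs in 1 cell. Costimulatory receptors were 2-fold higher in 4 of 8 cases, namely Tnfrsf4 (3.32, 1.74 to 7.0), Cd226 (2.26, 1.18 to 4.69), Cd48 (2.24, 1.78 to 2.86) and Icos (2.09, 1.31 to 3.44). Of 14 cytokine receptor genes 9 could be counted, of which 3 were at least 2-fold higher and 1 lower, with 6 ratios under 1 and a median of 0.885. Il18r1 and Il2rb, which make effector cells respond to interleukin-18, interleukin-2 and interleukin-15, had ratios of 7.6 (3.87 to 17) and 6.29 (3.18 to 14.2), and Ifngr1, a chain of the interferon gamma receptor, of 2.15 (1.55 to 3.02).

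Genes of the Ly6 and Ifitm families, cell surface and antiviral membrane proteins, had a median of 4.39 over 7 genes in CD4 T cells, with 4 at least 2-fold higher and 1 lower. Ifitm2 had 6.85 (6.18 to 7.58) against 0.184 (0.0675 to 0.400) UMIs per 10000, with 1.84 in the OX40 and 2.41 in the untreated library, and was found in 50 and 6 cells. Ly6c2, a surface protein of effector and memory cells, had 3.06 (2.61 to 3.55) against 0.337 (0.168 to 0.603), and the untreated library was as high as PDOX with 3.44. With cells of both coreceptors added, the median of this list was 0.923.

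Regulatory T cell genes were few. Foxp3, the defining factor of that lineage, had 27 UMIs in 15 PDOX CD4 T cells and 4 UMIs in 3 anti-PD-L1 cells, which is 4.98% (2.82 to 8.09) and 1.52% (0.315 to 4.39) of the cells. Over all T cells it had 60 against 16 UMIs, a ratio of 4.03 (2.29 to 7.5). Of 5 genes of this list counted in CD4 T cells, 2 were at least 2-fold higher, Tnfrsf4 and Nrp1 (2.33, 1.43 to 3.96), while Izumo1r, the folate receptor of regulatory cells, was at 0.920 (0.683 to 1.25) and Ikzf2 at 1.56 (1.09 to 2.25). Ctla4 had 15 and 9 UMIs, too few to be counted.

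Of 14 naive and stemness genes in CD4 T cells, 12 had ratios under 1 and 3 were at least 2-fold lower, with a median of 0.552. Among these were Dapl1 (2.22 against 6.25 UMIs per 10000, 0.356, 0.282 to 0.447) and Igfbp4 (4.18 against 8.86, 0.471, 0.395 to 0.562). Lef1 was just short of that fold, at 4.83 (4.27 to 5.44) against 9.38 (8.36 to 10.5). The 2 exceptions were Klf2 (1.13, 1.02 to 1.25) and Id3 (1.32, 0.726 to 2.49), both factors of quiescent cells. Il6ra, the receptor chain for interleukin-6, was also lower (0.385, 0.261 to 0.564), and so was Ramp1 (0.268, 0.168 to 0.419), which pairs with the receptor for the neuropeptide CGRP.

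A number of CD4 ratios depended on which cells were counted. With cells that held both Cd4 and Cd8 UMIs added to both lineages, the ratio of Cxcr6 was 8.59, of Bhlhe40 12.0, of Ccl5 7.24, of Ccr2 7.08, of Nkg7 5.33, of S100a4 5.71, of Id2 4.64 and of Klrk1 2.14, all still past 2-fold. Removing, for each gene, the cell with the most UMIs raised others, with 43.9 for Ccl5 and 27.6 for Gzma. Csta1, Calml3 and Plet1, of which 1 anti-PD-L1 cell held at least 91.3% of the UMIs of each, were among the 10 lowest ratios, and Mcpt8 and Prss34, proteases of basophils, were among the 10 highest on UMIs that lay almost wholly in 1 PDOX cell (97.5% and 98.6%).

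Of the 103 genes at least 2-fold higher in CD8 T cells, 35 were among the 2931 genes that could be counted in both lineages with UMIs in both libraries. At least 2-fold higher in both lineages were 32 genes, which is 91.4% of these 35 and 24.4% of the 131 higher in CD4 T cells. The minimum of 50 UMIs can be met in CD4 T cells through a high PDOX level alone, so the first share is not independent of that minimum, and the other genes higher in CD8 T cells were not compared. Another 19 were 2-fold lower in both, out of 31 in CD8 and 61 in CD4 T cells. No gene was 2-fold higher in CD8 and 2-fold lower in CD4 T cells, and Ifitm3 alone went the other way. For many effector genes the CD4 ratio was the wider. The CD4 ratio exceeded the CD8 ratio 30.8 times for Cxcr6 (7.52 to 126), 6.69 times for Nkg7 (5.09 to 8.81), 6.19 times for Ccr2 (2.44 to 15.7), 5.19 times for S100a4 (3.89 to 6.93), 3.61 times for Ccl5 (3.11 to 4.19) and 2.88 times for Id2 (2.22 to 3.74). The anti-PD-L1 levels of these genes were lower in CD4 than in CD8 T cells, for instance 0.0613 against 1.0 UMIs per 10000 for Cxcr6 and 1.69 against 18.9 for Nkg7, whereas the PDOX levels were 3.87 against 2.05 and 24.0 against 40.0. For Ctla2a (0.882, 0.442 to 1.76) and Ccr7 (1.05, 0.806 to 1.37) the interval of this quotient included 1.

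**Figure D3:**
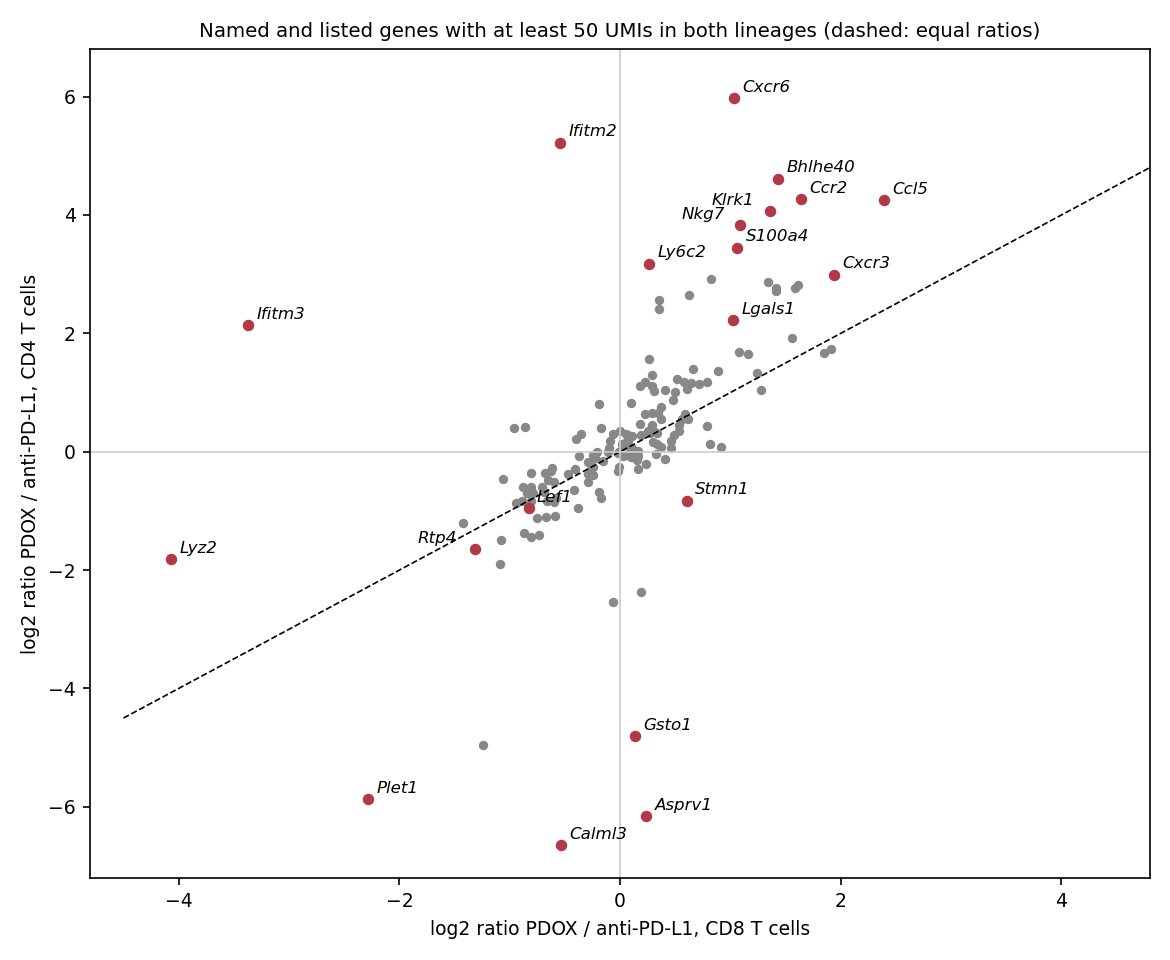
Log2 ratio of PDOX to anti-PD-L1 for the listed genes counted in both lineages, CD8 T cells on the horizontal and CD4 T cells on the vertical axis; each point is 1 gene, red points are labelled, and the dashed line marks equal ratios. Effector genes such as Cxcr6, Ccl5 and Nkg7 lie in the upper right and above the diagonal, while naive genes such as Lef1 (0.563 and 0.515 as ratios) lie in the lower left.

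A sum over many cells does not say whether more cells were of the effector kind or each held more transcript. Cells were therefore divided by 2 sets of markers. A cell was called effector-marker-high when UMIs of S100a4, S100a6, Lgals1, Anxa2 and Ahnak together exceeded those of 8 naive genes (among them Ccr7, Lef1, Tcf7, Satb1, Dapl1, Igfbp4 and Actn1) by at least 1, and naive-marker-high in the opposite case, so that these are ranges of a score and not cell types. In CD8 T cells 50.7% (46.0 to 55.3, 231 of 456) of the PDOX cells were effector-marker-high, against 13% (10.5 to 15.8, 85 of 653) with anti-PD-L1, 22.4% with OX40 and 7.41% untreated. In CD4 T cells the shares were 59.8% (54.0 to 65.4, 180 of 301), 9.14% (5.51 to 14.1, 18 of 197), 31.1% and 9.80%. The PDOX library thus had the largest share of such cells in both lineages and its interval overlapped none of the other 3. Gate genes such as S100a4, Lgals1, Lef1 and Dapl1 already differed as sums in these same cells. The share is therefore not a separate result from those ratios, and only shows how they were spread over cells. Cells within 1 UMI of the dividing line made up 8.33% of PDOX and 5.21% of anti-PD-L1 CD8 T cells and 5.32% and 7.11% of CD4 T cells. Without cells rich in myeloid, platelet or epithelial-type transcripts, the shares of PDOX and anti-PD-L1 were 50.3% and 11.7% in CD8 and 59.5% and 8.67% in CD4 T cells.

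**Figure D4:**
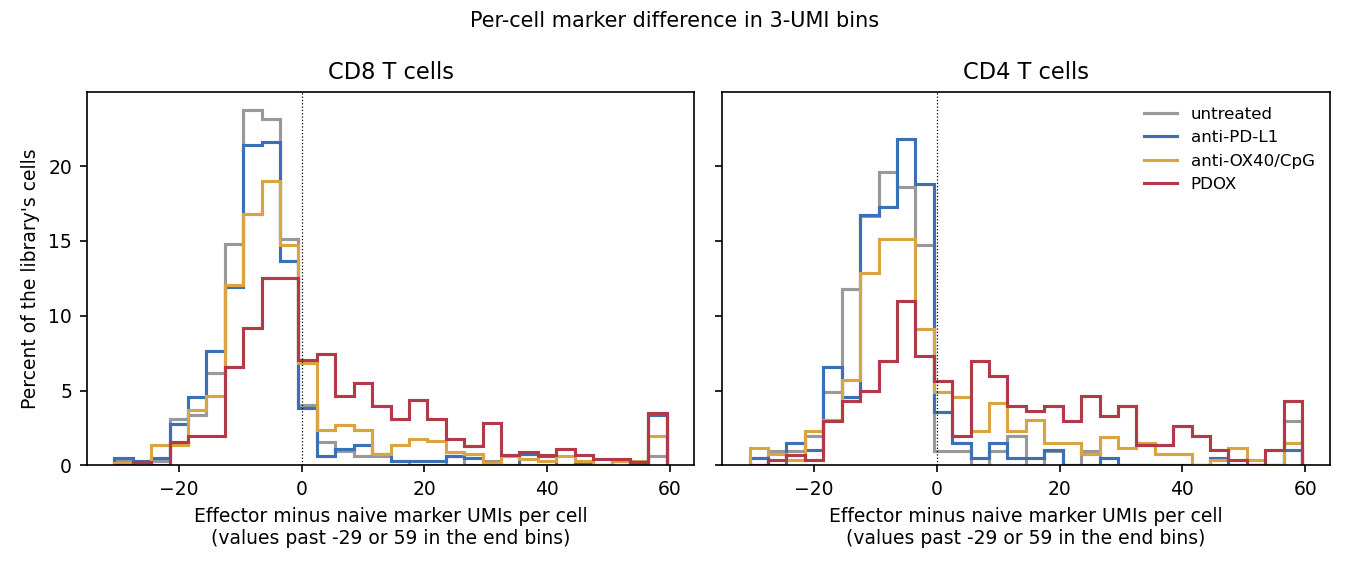
Share of cells (%) by the difference between effector and naive marker UMIs per cell, in bins of 3 UMIs, in either lineage and each of the 4 libraries; the last bin holds differences of 57 UMIs or more. PDOX cells spread over the positive side (50.7% of CD8 and 59.8% of CD4 T cells), whereas anti-PD-L1 cells gather on the negative side.

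Within effector-marker-high CD8 T cells most of the difference in effector genes was absent or small. Over the 2428 genes counted there, 47 (1.94%) were at least 2-fold higher and 85 (3.5%) at least 2-fold lower, with a median ratio of 1.06. None of 7 NK cell receptor genes (median 1.02), none of 6 effector transcription factor genes (median 1.26) and none of 11 homing genes (median 1.14) passed 2-fold. Klrk1 stood at 5.50 against 5.39 UMIs per 10000, a ratio of 1.02 (0.832 to 1.25), and Gzma at 30.2 against 26.4, a ratio of 1.14 (1.04 to 1.25). Gzmk was the exception among granule genes, with 188 against 26 UMIs and a ratio of 4.04 (2.67 to 6.34). Il2 (2.73, 1.37 to 6.06), Ccl5 (2.07, 2.01 to 2.12) and Lag3 (2.1, 1.12 to 4.23) also passed 2-fold, and Klrg1 came close (1.99, 1.26 to 3.23). Cxcr3 was at 1.75 (1.27 to 2.44) and Id2 at 1.26 (1.11 to 1.43). The ratios of this set were not repeated without cells rich in myeloid, platelet or epithelial-type transcripts. The gate is a difference of raw UMIs, not scaled for depth. The set held 498486 UMIs in 231 PDOX and 278199 in 85 anti-PD-L1 cells, so the latter were deeper on average. A marker difference of 65 UMIs or more was found in 12 PDOX and 20 anti-PD-L1 cells. The part of these differences between the cells in the ratios was not tested.

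Within effector-marker-high CD4 T cells the ratios stayed wider, over only 18 anti-PD-L1 cells. Of 1466 genes, 172 (11.7%) were at least 2-fold higher and 53 (3.62%) at least 2-fold lower, with a median of 1.16. Nkg7 had 35.0 against 6.59 UMIs per 10000, a ratio of 5.31 (3.68 to 7.96), and Id2 23 against 5.45, a ratio of 4.22 (2.82 to 6.62). Cxcr6 had 210 against 1 UMI, a ratio of 24.7 (4.39 to 981), Ccr2 4.77 (1.83 to 17.7) and Cxcr3 3.63 (1.52 to 11.3). Ikzf2, which encodes Helios, was lower in PDOX at 0.329 (0.220 to 0.502). Single cells weighed heavily in the 18, with 55.2% of the Nkg7 and 64.7% of the Ccl5 UMIs in 1 cell each.

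Fewer genes passed 2-fold in naive-marker-high cells. In CD8 T cells 17 of 3927 genes (0.433%) were at least 2-fold higher and 60 (1.53%) 2-fold lower, with a median of 1.01. Ctla2a was among the former, with 4.10 against 0.973 UMIs per 10000 and a ratio of 4.21 (3.23 to 5.50), as were Ccl5 (3.58, 3.26 to 3.93), Gzmm, a granzyme (31 against 26 UMIs, 3.46, 1.99 to 6.07) and Il2 (2.07, 1.19 to 3.57). Because Ccl5 UMIs were also found in 12.9% of B cells, its ratio here may hold background, the part of which was not measured. Nkg7 had a ratio of 1.49 (1.36 to 1.63) and Id2 of 1.38 (1.05 to 1.80). In naive-marker-high CD4 T cells, 4 of 1520 genes (0.263%) were 2-fold higher and 15 (0.987%) 2-fold lower, and Ccl5 was among the former with 76 against 17 UMIs (7.14, 4.18 to 12.9). However, 61.8% of these PDOX UMIs lay in 1 cell, and without the top cell of each library 29 against 16 UMIs were left, a ratio of 2.90 (1.52 to 5.71). Ccl5 UMIs were found in 17.9% of the PDOX and 9.71% of the anti-PD-L1 cells of this kind. The share in B cells was 12.9%, with an upper end of 19.8%, so neither share stood above the range of the B cells. The B cells were pooled over the 4 libraries, and the background of each library was not measured.

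Interferon-stimulated genes were lower in PDOX than in anti-PD-L1 T cells, and they were lower in every set of CD8 T cells that was examined. In all CD8 T cells all 17 genes counted had ratios under 1, with a median of 0.573, and 4 were at least 2-fold lower, namely Oasl2, a relative of the antiviral oligoadenylate synthetases (0.317, 0.173 to 0.548), Usp18, which removes ISG15 from proteins (0.365, 0.202 to 0.626), Rtp4 (0.403, 0.279 to 0.572) and Igtp, an interferon-induced GTPase (0.479, 0.365 to 0.622). Ifi27l2a, the gene of this list with the most UMIs, had 12.3 (11.5 to 13) UMIs per 10000 in PDOX and 22.6 (21.8 to 23.5) in anti-PD-L1. Isg15, a ubiquitin-like protein, had 1.32 (1.08 to 1.58) against 2.37 (2.11 to 2.65). The untreated and OX40 libraries did not have the level of the anti-PD-L1 library. Ifi27l2a stood at 9.87 and 8.20 and Isg15 at 0.608 and 0.588 in these 2 libraries, so that anti-PD-L1 was the highest of the 4 for both genes and PDOX was second.

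In naive-marker-high CD8 T cells, a range that shifts in size between the libraries but not in most of its genes, 8 of 17 interferon-stimulated genes were at least 2-fold lower, 16 were under 1 and the median was 0.603, against 1.53% of all genes past that fold. Ifi27l2a had 8.10 against 22.6 UMIs per 10000, a ratio of 0.358 (0.315 to 0.405), Isg15 0.692 against 1.75, a ratio of 0.396 (0.247 to 0.609), Ifit3 5 against 65 UMIs, a ratio of 0.223 (0.0702 to 0.548), and Ifit1 8 against 78 UMIs, a ratio of 0.298 (0.124 to 0.616). In effector-marker-high CD8 T cells all 13 genes counted were under 1, 3 of them past 2-fold, with a median of 0.609. Without cells rich in myeloid, platelet or epithelial-type transcripts, 228 of 231 such PDOX and 75 of 85 such anti-PD-L1 cells were left. The ratios of this set were not repeated on the cells left. In CD4 T cells all 12 genes counted were under 1 with a median of 0.662, and 3 were past 2-fold, Rtp4 (0.319, 0.192 to 0.519), Ifit1 (0.369, 0.200 to 0.665) and Irf7, which amplifies type I interferon (0.458, 0.303 to 0.687). MHC class I genes, many of which also respond to interferon, had medians of 1.01 in CD8 and 1.02 in CD4 T cells.

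**Figure D5:**
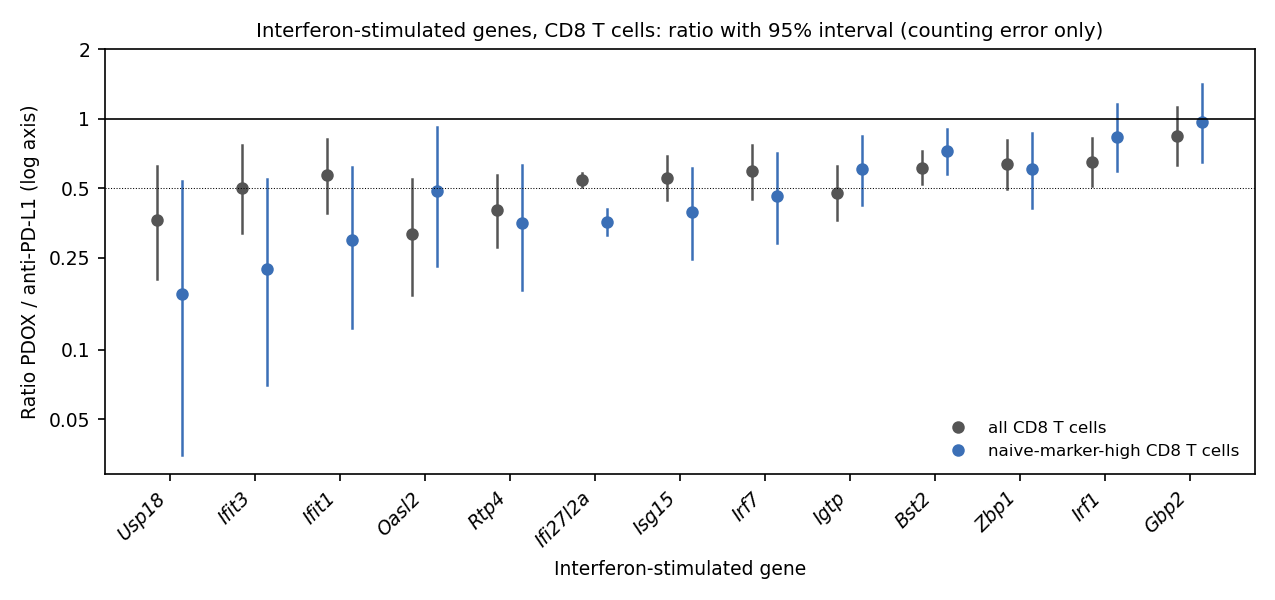
Ratio of PDOX to anti-PD-L1 (log axis) of 13 interferon-stimulated genes in all CD8 T cells and in naive-marker-high CD8 T cells, with 95% intervals for counting error. The ratio of Ifi27l2a is 0.542 in all CD8 T cells and 0.358 in naive-marker-high cells.

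Promoters of 3 genes of this group are shown because they hold the letters of an element that interferon-regulated factors bind. The sequences are those of RefSeq on GRCm38.p6, from 250 bases before to 50 bases after the transcription start, 5′ to 3′ on the strand of the gene, and capitals mark GAAANNGAAA or its reverse complement TTTCNNTTTC, the core of the interferon-stimulated response element. Rsad2 (viperin, an antiviral enzyme) lies at chr12:26456403-26456702 on the minus strand, Ifit3 at chr19:34583279-34583578 and Ifit1 at chr19:34640639-34640938, both on the plus strand, and the last 2 encode proteins that hold back foreign RNA.
Rsad2: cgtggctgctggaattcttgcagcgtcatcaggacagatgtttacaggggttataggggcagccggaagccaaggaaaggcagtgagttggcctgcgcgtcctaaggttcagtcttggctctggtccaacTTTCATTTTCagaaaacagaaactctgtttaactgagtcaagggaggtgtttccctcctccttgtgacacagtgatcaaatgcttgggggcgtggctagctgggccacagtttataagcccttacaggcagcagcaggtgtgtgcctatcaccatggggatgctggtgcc
Ifit3: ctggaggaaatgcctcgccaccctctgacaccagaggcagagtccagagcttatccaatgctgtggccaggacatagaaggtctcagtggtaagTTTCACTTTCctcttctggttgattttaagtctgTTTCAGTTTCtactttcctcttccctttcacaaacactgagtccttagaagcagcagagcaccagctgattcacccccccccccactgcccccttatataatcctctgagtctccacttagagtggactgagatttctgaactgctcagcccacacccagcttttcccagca
Ifit1: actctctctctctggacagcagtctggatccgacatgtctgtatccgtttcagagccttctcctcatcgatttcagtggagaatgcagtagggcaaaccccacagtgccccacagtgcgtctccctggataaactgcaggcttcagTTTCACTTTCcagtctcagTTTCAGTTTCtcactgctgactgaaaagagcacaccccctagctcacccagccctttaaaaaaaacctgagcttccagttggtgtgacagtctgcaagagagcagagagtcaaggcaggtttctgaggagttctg
Rsad2 had 1 such stretch and Ifit3 and Ifit1 had 2 each. Over all T cells Rsad2 had 14 UMIs in PDOX and 61 in anti-PD-L1, a ratio of 0.247 (0.128 to 0.446), Ifit3 one of 0.385 and Ifit1 one of 0.432. The element was found in 8 of 13 interferon-stimulated genes with a promoter sequence (61.5%) and in 1079 of 27025 genes of any kind with one (3.99%). It was also found in 2 of 6 Ly6 and Ifitm, 3 of 12 MHC class I and 3 of 12 cytotoxic granule genes. Costimulatory receptors had it in 1 of 6 and effector transcription factors in 1 of 10 genes, and the remaining lists had none. It was therefore not particular to genes lower in PDOX. The match describes these letters and shows no binding.

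Immediate early genes, which follow recent receptor signals and also handling of cells, had medians of 0.658 over 12 genes in CD8 and 0.715 over 10 genes in CD4 T cells. Nr4a1, which reports T cell receptor signalling, had 0.128 (0.0640 to 0.229) UMIs per 10000 in PDOX and 0.619 (0.491 to 0.769) in anti-PD-L1 CD8 T cells, with 1.01 in untreated and 0.218 in OX40 cells, a ratio of 0.207 (0.0994 to 0.390). Junb (0.577, 0.533 to 0.624) and Nfkbia, the feedback inhibitor of NF-kB (0.539, 0.467 to 0.621), stayed short of 2-fold. In CD4 T cells Zfp36, which shortens the life of cytokine mRNA, was the gene past it (0.379, 0.278 to 0.514). Both libraries with anti-OX40 and CpG had less Nr4a1 than both libraries without.

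Shares of cells with a UMI gave the same order as the levels for the genes of effector cells. Id2 UMIs were found in 50.4% of PDOX and 28.2% of anti-PD-L1 CD8 T cells and in 58.8% and 22.3% of CD4 T cells. With every cell thinned to 750 UMIs, which left out 43 PDOX and 30 anti-PD-L1 CD8 T cells and 17 and 11 CD4 T cells, the shares were 39.2% and 16.1% in CD8 and 46.5% and 11.8% in CD4 T cells. In 132 B cells of the 4 libraries, which should lack such transcripts and had a median of 1242 UMIs against 1616 to 1843 in the T cell sets, Id2 UMIs were found in 3.79%. Cxcr3 was found in 25.2% and 7.04% of CD8 T cells (thinned 14.3% and 2.89%) and in 28.2% and 4.06% of CD4 T cells (14.1% and 2.15%), with none in the B cells, which allows up to 2.76%. Tnfrsf4 was found in 13% (9.38 to 17.3) of PDOX and 4.06% (1.77 to 7.84) of anti-PD-L1 CD4 T cells, and thinned in 7.39% (4.64 to 11.1) and 1.61% (0.334 to 4.64). Ccl5 UMIs in anti-PD-L1 CD4 T cells (11.7%) were no more frequent than in B cells (12.9%), against 41.2% in PDOX. The B cells were pooled over the 4 libraries, so the background of each library was not measured. Ly6a, which B cells express (49.2%), had shares of 44.7% and 31.9% in CD8 T cells, both below that of the B cells. The thinned shares were 29.5% and 17.3%. The ratio of Ly6a levels was 1.0 (0.912 to 1.10) and depended on the cells kept. It was 0.702 in CD8 T cells of at least 2 Cd3 UMIs and 1.74 without cells of at least 10 myeloid or platelet UMIs.

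The OX40 and untreated libraries give the same contrast without anti-PD-L1, and the 2 contrasts share no library. In CD8 T cells the granule genes had similar medians with and without anti-PD-L1, 1.81 and 1.69 over 10 genes, while the NK cell receptors had the smaller ratio in every one of 7 genes when anti-PD-L1 was present (medians 2.39 and 5.71). Over all 4638 genes compared in CD8 T cells, the ratio was larger with anti-PD-L1 in 2609. In untreated CD8 T cells, Klrg1 UMIs were found in 1, Klrc1 in 7 and Klrk1 in 9 of 324 cells. The ratios of these receptors without anti-PD-L1 thus rest on few untreated cells, and the genes can meet the minimum through the OX40 library. Gzma was 3.06-fold higher with and 11.2-fold higher without anti-PD-L1, and the quotient of the ratios was 0.274 (0.196 to 0.383). Its level in untreated cells was 0.700 UMIs per 10000 and in anti-PD-L1 cells 5.77. Naive genes had the lower median with anti-PD-L1, 0.626 against 0.816 over 15 genes, and Dapl1 differed in PDOX (0.472) but hardly in OX40 against untreated cells (0.960, 0.866 to 1.06), with a quotient of 0.492 (0.421 to 0.575). Il2 had opposite directions, 2.43 with and 0.358 (0.224 to 0.569) without anti-PD-L1. Interferon-stimulated genes had a median of 0.595 with and 0.858 without anti-PD-L1, and the ratio was lower with anti-PD-L1 for all 12 genes compared, to be read against the 2609 of 4638 genes with the larger ratio. Igtp, for example, had 0.479 and 1.35 (0.927 to 2), a quotient of 0.355 (0.227 to 0.556).

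In CD4 T cells the contrast was wider with anti-PD-L1 for galectin, S100, annexin and cytoskeleton genes, with medians of 2.22 and 1.25 and a larger ratio with anti-PD-L1 in 17 of 17 genes. Over all 2187 genes compared, the ratio was larger with anti-PD-L1 in 1070. Ccl5 had 19.0 with and 4.59 (3.75 to 5.67) without, a quotient of 4.14 (3.22 to 5.31), and S100a4 10.9 and 2.97 (2.25 to 3.98), a quotient of 3.66 (2.49 to 5.38). Ccr2 had 19.2 and 1.47 (0.883 to 2.58), where the anti-PD-L1 level of 0.153 UMIs per 10000 was lower than the untreated one of 1.09. Itgb1 went the other way, with 2.50 with and 12.5 (5.63 to 34.4) without anti-PD-L1, a quotient of 0.200 (0.0862 to 0.466). The untreated library held 102 CD4 T cells, of which 4 were rich in myeloid or platelet markers, and the part of these cells in its levels was not tested.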

How the data were processed

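Single-cell RNA sequencing counts were deposited by the authors as 1 matrix of raw UMI counts per gene and cell for each of 4 libraries; per the submitters' notes the reads were processed with Cell Ranger 2.1.1 on mm10 and further with Seurat 2, and the gene annotation is not given in the sources used here. No normalization had been applied to the counts. Cells with 200 to 2900 detected genes were kept, and 13 mitochondrial, 109 ribosomal and 8 hemoglobin genes of 27998 were left out of detection and of the totals. The genes Trac, Trbc1 and Trbc2 were not analysed here. UMIs were summed over the T cells of a library and given per 10000, with exact Poisson intervals. The ratio of PDOX to anti-PD-L1 was given with an exact conditional binomial (Clopper-Pearson) interval, shares with exact Clopper-Pearson intervals, and quotients of ratios with a Wald interval on the log scale, all at 95% and for counting error only. With 1 library a group no test across samples can be made. A gene was called higher or lower past 2-fold among genes with at least 50 UMIs over both libraries, and a ratio against no UMI was set against a floor of 3 UMIs in that library. No doublet caller was run; cells above 2900 genes were removed (4 PDOX and 14 anti-PD-L1 cells), and cells with both coreceptors were put in neither lineage.

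Genes were named by rule: of each of 20 lists (246 genes) the 2 to 5 with the largest ratios, the treatment targets and the genes of the cell shares, and in each lineage the 10 genes with the highest and the 10 with the lowest interval bound nearest to 1, without symbols of unnamed transcripts. Not all of these are printed, and results that rest on some single genes of the lists are not reported here. Other genes are named as examples of a list and were chosen after their values were seen. The members and the lists were chosen with earlier results of these data known. On simulated counts for these libraries the intervals covered the true ratio in 95.8% of 7678 genes for all T cells, 95.9% of 5307 for CD8 and 96.4% of 2946 for CD4 T cells. These were independent Poisson counts per library without cells, the model the intervals assume, so such coverage follows from the construction. It checks the calculation only. UMIs that gather in single cells were not simulated, so coverage for such genes is not known. Alternatives were 14 planned settings and 4 that were chosen after seeing the data. Python 3.11.15, numpy 2.4.6, scipy 1.17.1, pandas 2.3.3 and matplotlib 3.10.9 were used, with edgeR 4.0.16 and DESeq2 1.42.0 in R 4.3.3 for alternative size factors only. Promoter sequences came from RefSeq (GRCm38.p6).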

Additional observations from a re-analysis of the deposited data

Results flagged for a closer look

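Among the genes of the lists, 4 had ratios of PDOX to anti-PD-L1 whose intervals lay on opposite sides of 1 in CD8 and CD4 T cells, with 1 library a side and the difference between lineages not tested across samples. Other listed genes also had ratios on either side of 1 but an interval that reached 1 in at least 1 lineage, such as Id3 with 0.515 in CD8 and 1.32 (0.726 to 2.49) in CD4 T cells. Ifitm3, an antiviral membrane protein, had 0.0966 in CD8 and 4.39 in CD4 T cells, and 83.5% of its UMIs in anti-PD-L1 CD8 T cells lay in 8 cells rich in myeloid or platelet markers. Ifitm2, of the same family, had 0.687 and 37.3. Its CD8 ratio was 1.78 without the 5% of T cells with the most UMIs, so its direction in CD8 T cells depended on the deepest cells. Stmn1, a tubulin-binding protein of dividing cells, had 1.52 and 0.564. Tagln2, an actin-binding protein, had 0.878 and 1.75.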

How the results depend on the processing

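No paired analysis was possible because each group is 1 library and the labels give no replicate numbers. Of 706 list medians under the alternatives, 702 kept their direction and moved little, and of 2007 gene ratios 1595 did. Among the 1595 are 165 ratios each for the minimum of 20 UMIs and for no minimum, which cannot move a ratio. Another 165 each came from the edgeR and DESeq2 size factors, whose log2 shifts lay between -0.04 and 0.01. These settings therefore say little about how stable a ratio was. With ribosomal, mitochondrial and hemoglobin genes in the denominator, the higher and lower genes were 177 and 197 in all T cells before and 264 and 123 after, 163 and 73 in CD8 and 201 and 37 in CD4 T cells. Weighting CD8 and CD4 T cells equally gave 293 and 364 over all T cells. Thinning to 750 UMIs left fewer genes to count, with 113 and 89 in all, 49 and 49 in CD8 and 49 and 28 in CD4 T cells. A minimum of 20 UMIs gave 305 and 417, 246 and 374, and 386 and 264, and no minimum 644 and 920, 583 and 911, and 985 and 892. Genes lower in CD4 T cells numbered 115 with cells of both coreceptors added. Without cells of 2 or more markers of another cell type, 103 genes were lower in all and 76 in CD8 T cells, and 89 were higher and 39 lower in CD4 T cells. Genes lower in all T cells numbered 128 without cells of at least 10 myeloid or platelet UMIs and 124 without the 5% of cells with the most UMIs. The cause of these shifts was not tested beyond the construction of each setting. Effector-marker-high cells were 46.0% of PDOX T cells at a difference of 3 UMIs, and 10.5% of anti-PD-L1 T cells without myeloid-, platelet- or epithelial-rich cells.

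Among the ratios past 2-fold, those that reversed belong to genes carried by few cells, with the exception of 1 list. With lineages weighted equally, Krt19 was 3.69 and Psca 8.83 over all T cells. Psca was 0.133 in CD8 T cells of at least 2 Cd3 UMIs. With cells of both coreceptors added, Krt13 was 0.805, Krt19 0.555 and Psca 0.448 in CD8 T cells, and the Ly6 and Ifitm list median 0.923 in CD4 T cells. Without cells of at least 10 myeloid or platelet UMIs, Gsto1 was 1.08, Ifitm3 1.66, Krt19 4.10, Psca 2.57 and Tyrobp 1.34 over all T cells. Ifitm3 was 1.24 without cells of 2 or more other markers and 1.39 without the deepest 5%, where Tyrobp was 1.69. Without the top cell of each gene, Krt13 was 0.169 and Psca 0.235 in CD8 T cells, and Insig1 1.53 and Nccrp1 1.0 in CD4 T cells. Depth limits CD4 T cells most, with 326144 UMIs in the anti-PD-L1 library against 552917 in PDOX.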

Other observations

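Transcripts of cells other than T cells were unevenly spread among the cells that passed the Cd3 rule. S100a8, an alarmin of neutrophils, had 726 UMIs in PDOX and 10 in anti-PD-L1 T cells, with 55.2% of the former in 1 cell, and S100a9, its partner chain, had 552 and 33. Ngp, a granule protein of immature neutrophils, had 118 UMIs in PDOX, 95.8% of them in 1 cell, and none in anti-PD-L1 T cells. Lyz2 went the other way, and 89.9% of its anti-PD-L1 UMIs lay in 30 cells rich in myeloid or platelet markers. The share of cells with 1 Cd3 UMI was 6.79% in PDOX and 5.16% in anti-PD-L1 T cells. The part of these cells in the sums over all T cells was measured by leaving them out, for the counts and for some of the ratios given above.

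Over all T cells, Ccl3, an inflammatory chemokine, had a ratio of PDOX to anti-PD-L1 of 5.74. Prdm1, which encodes BLIMP-1, had 42 against 17 UMIs and Tbx21 84 against 24, a ratio of 3.76 (2.37 to 6.2). Both factors were too sparse within either lineage to be counted.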
